A study of Mus musculus with 5 samples.

Results

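The tumor necrosis factor (TNF) ligand and receptor superfamily was followed in mouse bone marrow cells sorted as Hardy fraction A. Its members were taken by gene symbol, as every symbol that starts with Tnfrsf or Tnfsf together with Tnf, Lta, Ltb, Ltbr, Cd40, Cd40lg, Cd27, Cd70 and Fas. The table held 46 such rows, which came to 40 genes of 22098 symbols, 16 ligands and 24 receptors. For the 5 genes with more than 1 transcript, the transcript with the highest mean over the 5 libraries was used. The libraries were 2 from the mutant of Ikaros zinc finger 1 (genotype Ikaros_ZnF1-/-, dF1), 1 from the mutant of zinc finger 4 (Ikaros_ZnF4-/-, dF4) and 2 from wild type (wt), all of strain C57BL/6 and aged 6 to 7 weeks. Ikaros, a transcription factor required for lymphocyte development, binds DNA through a block of fingers that holds fingers 1 and 4. The cells were sorted from bone marrow without removal of other lineages, and the labels call them proB cells. The labels do not say how many mice went into a library nor whether those of wt are from separate animals. The p-values therefore reflect only how far these libraries differ among themselves, which may be technical variation.

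Ligands of the superfamily are membrane proteins or are shed from the cell, and act as trimers that cluster their receptors. The receptors carry cysteine-rich repeats outside the cell and signal through TRAF adaptors to NF-kB or, where they have a death domain, through FADD and caspase 8 to cell death. In the bone marrow and in lymphoid organs the family is known for B cell survival (the receptors of BAFF and APRIL), for lymphoid organ formation (lymphotoxin and its receptor) and for costimulation of B, T and NK cells (Cd40, Cd27 and others).

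Levels are given in RPKM, reads scaled to transcript length and library size, so that genes can be compared with each other. The dF4 library is shallow. Its low values were multiples of 1.67 RPM (reads scaled to library size), within 0.1 read, for 80.4% of 1568 values, which puts it at an estimated 597729 reads. Intervals given for dF4 are exact 95% Poisson intervals on reads estimated in this way and cover counting error only. No such step could be resolved in the dF1 and wt libraries, whose depth is unknown. Of the early B lineage markers, Pax5, a transcription factor of B cell commitment, was at 6 and 9.4 RPKM in dF1, 61.5 in dF4 and 7.8 and 5.4 in wt. Igll1, which encodes a part of the surrogate light chain, was at 35.3 and 39.6 RPKM in dF1, 167.2 in dF4 and 88.3 and 40.3 in wt. These 2 genes were highest in dF4, while others of the list were not. Blnk, an adaptor of B cell receptor signalling, was at 110.6 and 95.7 RPKM in dF1, 71.9 in dF4 and 124.2 and 138.6 in wt. Rag1, a recombinase of antigen receptor genes, was at 23.6 and 22.4 RPKM in dF1, 16.6 in dF4 and 29.7 and 13.1 in wt. All 4 genes were present in every library. Plasmacytoid dendritic cell markers (8 genes) summed to 2789 and 3060 RPKM in dF1, 357.9 in dF4 and 2939 and 3319 in wt, and were lowest in dF4. NK markers (7 genes) summed to 1654 and 1457 RPKM in dF1, 542.2 in dF4 and 1415 and 638 in wt. Neutrophil markers (9 genes) summed to 207.5 and 772.4 RPKM in dF1, 30259 in dF4 and 364.7 and 983.2 in wt. In bulk RNA of a mixed sort, more cells of a type and more RNA per cell cannot be told apart.

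Of the 40 genes, 16 averaged at least 5 RPKM over the 5 libraries, 8 lay between 1 and 5, and the other 16 lay below 1. In wt the highest were the receptors Tnfrsf14 (50 and 66.1 RPKM) and Cd27 (61 and 37.4), the ligand Ltb (59.6 and 29.8) and the receptors Tnfrsf1a (32.9 and 34), Tnfrsf18 (36.1 and 27.6) and Tnfrsf1b (31.7 and 21.9). The wt ranges of Tnfrsf14, Cd27 and Ltb overlap, as do those of Tnfrsf1a and Tnfrsf18 and of Tnfrsf18 and Tnfrsf1b, so the order of these neighbours lies within the spread of the 2 libraries. Below them came the BAFF and APRIL receptors Tnfrsf13c and Tnfrsf13b, between 10 and 16.5 RPKM. In dF1 the same 6 genes led, with Cd27 at 69.5 and 73.7 RPKM and Ltb at 58.1 and 63. In dF4 Ltb was the highest of all 40, at 213.6 RPKM, and Cd27 was second at 86.8.

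**Figure D1:**
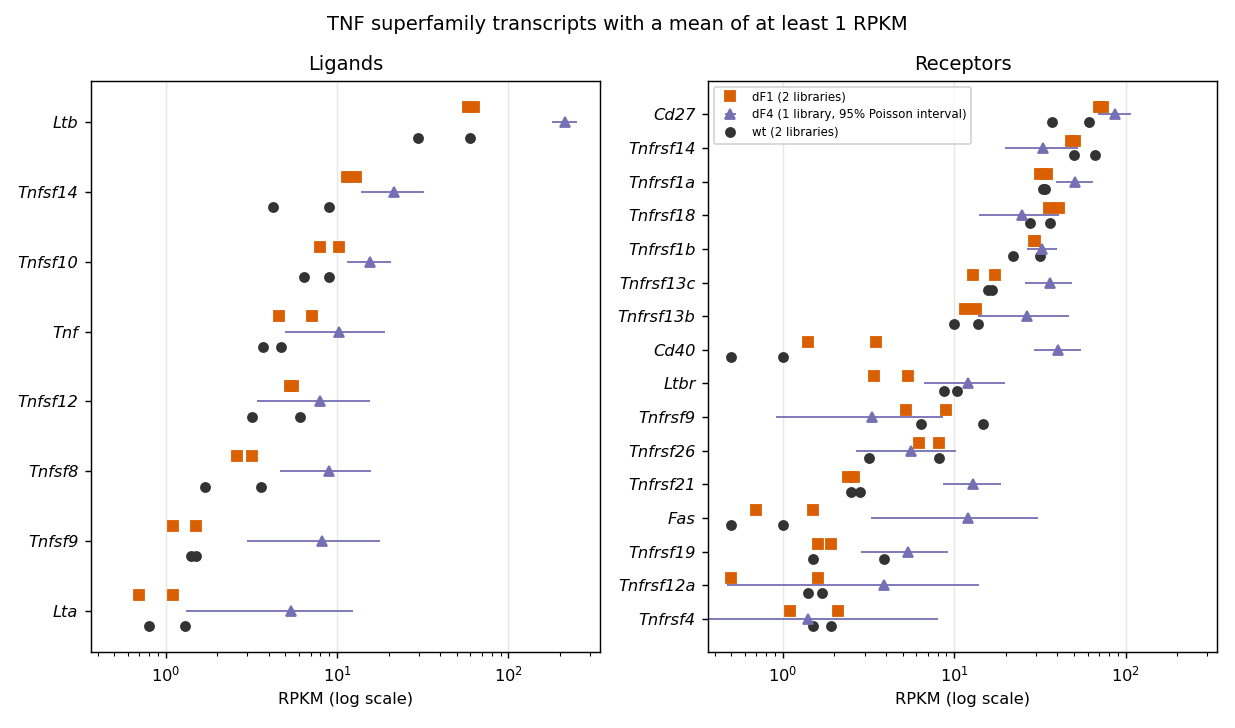
RPKM on a log scale for the 8 ligands and 16 receptors with a mean of at least 1 RPKM, by library (squares, dF1; triangles with 95% Poisson intervals, dF4; circles, wt). The interval of Tnfrsf4 in dF4 (1 read) runs past the left edge. For Cd40 and Ltb the dF4 interval lies to the right of all other libraries, and the dF1 and wt points of Ltbr do not overlap.

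The lymphotoxin group was the one with the most abundant ligand. Ltb encodes lymphotoxin beta, which forms a membrane complex with the product of Lta and binds the lymphotoxin beta receptor, Ltbr. Tnfsf14 encodes LIGHT, which binds Ltbr and also HVEM, the product of Tnfrsf14. The 250 bases upstream of the start of these 4 genes are shown because they hold the most abundant ligand, the most abundant wt receptor and the receptor with the smallest p between dF1 and wt. They are RefSeq sequences of build GRCm38.p6, from chr17:35194257-35194506 (plus strand), chr6:125313886-125314135, chr17:57194182-57194431 and chr4:154928078-154928327 (minus strand for these 3), read 5′ to 3′ toward the gene. Capitals mark matches on either strand to the Ikaros core TGGGAA or to the NF-kB consensus.
Ltb: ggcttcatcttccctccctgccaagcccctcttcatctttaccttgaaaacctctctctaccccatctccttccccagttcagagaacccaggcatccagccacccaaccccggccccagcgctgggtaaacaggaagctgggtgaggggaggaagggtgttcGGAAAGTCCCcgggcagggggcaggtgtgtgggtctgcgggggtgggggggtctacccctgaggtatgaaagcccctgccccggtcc
Ltbr: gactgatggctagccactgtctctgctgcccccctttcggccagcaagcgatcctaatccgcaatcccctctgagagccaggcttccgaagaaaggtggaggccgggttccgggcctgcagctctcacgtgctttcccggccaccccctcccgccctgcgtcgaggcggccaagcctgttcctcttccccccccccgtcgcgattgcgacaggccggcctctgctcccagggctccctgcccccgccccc
Tnfsf14: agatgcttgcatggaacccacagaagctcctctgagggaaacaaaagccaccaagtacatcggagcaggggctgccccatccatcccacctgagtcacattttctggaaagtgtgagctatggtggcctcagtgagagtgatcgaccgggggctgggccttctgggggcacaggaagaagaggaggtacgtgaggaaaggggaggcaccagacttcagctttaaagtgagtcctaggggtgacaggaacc
Tnfrsf14: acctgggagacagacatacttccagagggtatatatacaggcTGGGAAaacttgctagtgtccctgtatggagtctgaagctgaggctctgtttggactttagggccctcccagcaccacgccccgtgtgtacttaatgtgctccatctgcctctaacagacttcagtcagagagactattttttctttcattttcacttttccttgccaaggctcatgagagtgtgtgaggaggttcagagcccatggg
The Ltb window held 1 NF-kB consensus match, GGAAAGTCCC as printed, ending 77 bases before the start. The Tnfrsf14 window held 1 Ikaros core, ending 202 bases before the start, and the windows of Ltbr and Tnfsf14 held no match to either. The 2 motifs can share bases, which they do not in these windows. Windows were given for 30 of the 40 genes (34 windows). Of these windows, 17.6% held the Ikaros core, against 21.6% of all 32851 promoter windows, and 11.8% held the NF-kB consensus, against 7.25%. A match is a run of letters and not a known binding site. The genes Cd40, Cd40lg, Cd70, Tnfrsf10b, Tnfrsf11b, Tnfrsf22, Tnfrsf26, Tnfsf12, Tnfsf4 and Tnfsf9 had no window.

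Ltb was at 58.1 and 63 RPKM in dF1, 213.6 (95% Poisson interval 179.4 to 251.7, about 140 reads) in dF4 and 59.6 and 29.8 in wt. The upper wt library lies between the dF1 values, and dF4 stands above all 4 others. The dF1 difference was 0.51 on the log2(RPKM + 1) scale (SE 0.33, limma adjusted p = 0.808). It was 0.02 without wt replicate 2 and 0.998 without wt replicate 1. The dF4 level was 4.78-fold the wt mean.

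Ltbr was at 3.4 and 5.4 RPKM in dF1, 12 (6.68 to 19.7, about 15 reads) in dF4 and 8.7 and 10.4 in wt. Both dF1 libraries lay below both wt libraries, while the dF4 interval covers the wt values and lies above both dF1 values. The means were 4.4 ± 1.41 RPKM in dF1 and 9.55 ± 1.2 in wt (SD, n = 2 each), a difference of -0.99 (SE 0.23, unadjusted p = 0.00767, limma adjusted p = 0.474). It was the smallest p of the family and did not pass the correction. Its size was -0.87 and -1.10 without wt replicate 2 and 1, and -0.72 and -1.26 without dF1 replicate 1 and 2.

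Tnfsf14 was at 12.9 and 11.5 RPKM in dF1, 21.6 (13.8 to 32.1) in dF4 and 9 and 4.2 in wt. Every mutant library was above both wt libraries. The dF1 difference was 0.87 (SE 0.33, unadjusted p = 0.0447, limma adjusted p = 0.686), and it was 0.40 without wt replicate 2 and 1.34 without wt replicate 1. Its receptor Tnfrsf14 was at 47.9 and 51 RPKM in dF1, 32.9 (19.8 to 52.8) in dF4 and 50 and 66.1 in wt. Here the dF1 and wt libraries overlap (difference -0.21, SE 0.17, limma adjusted p = 0.836), and the dF4 interval reaches the lower wt library. Lta lay between 0.7 and 1.3 RPKM in dF1 and wt and was at 5.4 (1.31 to 12.4, about 4 reads) in dF4.

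**Figure D2:**
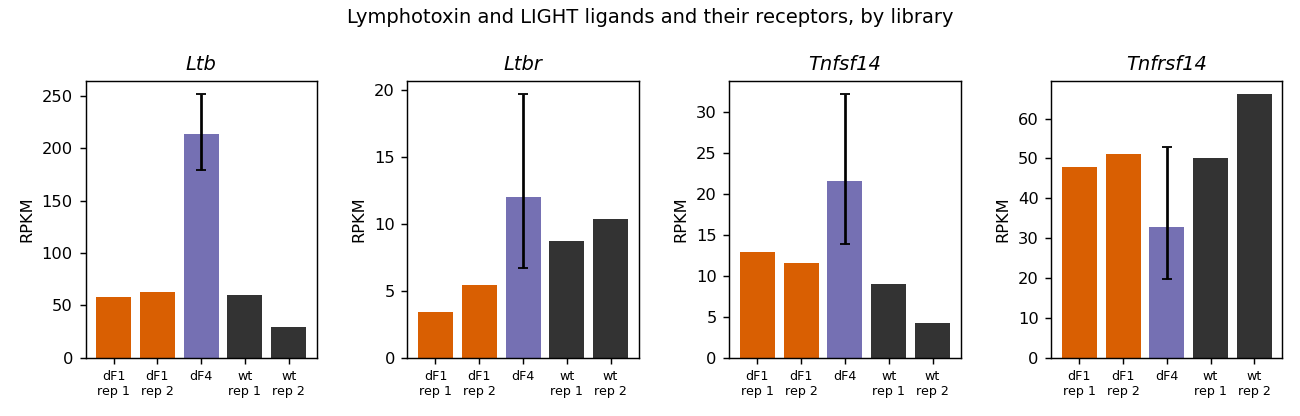
RPKM of Ltb, Ltbr, Tnfsf14 and Tnfrsf14 in each library (bars; the line on the dF4 bar is its 95% Poisson interval). Ltbr is at 3.4 and 5.4 in dF1 against 8.7 and 10.4 in wt, and Ltb is at 213.6 in dF4.

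Among the receptors of B cells, Cd40 had the largest difference between dF4 and wt. Cd40 is carried by mature B cells, dendritic cells and macrophages, and its ligand Cd40lg comes from activated T cells. Cd40 was at 3.5 and 1.4 RPKM in dF1, 40.5 (29.1 to 55, about 41 reads) in dF4 and 0.5 and 1 in wt. Both dF1 libraries were above both wt libraries by a small amount, and dF4 was far above all of them. The dF4 level was 54-fold the wt mean of 0.75 RPKM. The dF1 difference was 0.92 (SE 0.34, unadjusted p = 0.0429, limma adjusted p = 0.683). It was 0.47 without dF1 replicate 1 and 1.38 without dF1 replicate 2. At these low levels it also depends on the pseudocount, and was 1.52 with 0.1 and 0.36 with 5 in place of 1. The dF4 difference was 4.58, and 5.64 and 2.99 with those pseudocounts. Cd40lg lay at 0.2 RPKM or below in every library.

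Tnfrsf13c, the BAFF receptor on which peripheral B cells depend, was at 12.9 and 17.2 RPKM in dF1, 36 (25.8 to 48.7, about 41 reads) in dF4 and 15.7 and 16.5 in wt. The wt values lie within the dF1 range, and dF4 is above all 4. Tnfrsf13b, which encodes TACI, a receptor of BAFF and APRIL, was at 11.6 and 13.4 RPKM in dF1, 26.6 (13.8 to 46.5, about 12 reads) in dF4 and 10 and 13.7 in wt. The lower end of its dF4 interval touches the upper wt library. The dF1 differences were -0.10 (SE 0.17, limma adjusted p = 0.917) for Tnfrsf13c and 0.08 (SE 0.19, limma adjusted p = 0.945) for Tnfrsf13b. Tnfrsf17, the plasma cell receptor BCMA, was listed at 0 and at 0.3 RPKM in dF1, at 0 in dF4 and at 1.1 and 0.3 in wt. The ligand Tnfsf13b, BAFF, was at 2 RPKM (about 2 reads) in dF4 and at 0.4 or below in dF1 and wt, and Tnfsf13, APRIL, did not pass 0.3 in any library.

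Mature B cell markers stood higher in dF4 as well, unlike Blnk and Rag1 of the early B lineage list. The 7 mature B markers summed to 320.9 and 352 RPKM in dF1, 811.9 in dF4 and 293.7 and 335.6 in wt. Most of the sum in dF1 and wt was Cd37, at 306.9 and 337.3 RPKM in dF1, 412.4 in dF4 and 271 and 306.6 in wt. Ms4a1, which encodes CD20, was at 0.9 and 1.3 RPKM in dF1, 80.9 in dF4 and 1.6 and 1.2 in wt. In the same list Cr2 was at 0.3 RPKM in dF4 and at 0.1 or below elsewhere. The part of these cells in the levels of Cd40, Tnfrsf13c and Tnfrsf13b was not tested.

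Of the costimulatory receptors of T and NK cells, Cd27 and Tnfrsf18 were abundant. Cd27, a receptor of lymphoid progenitors, T, NK and memory B cells, was at 69.5 and 73.7 RPKM in dF1, 86.8 (69 to 107.6) in dF4 and 61 and 37.4 in wt. Both dF1 libraries were above both wt libraries (difference 0.57, SE 0.24, limma adjusted p = 0.713). The difference was 0.23 without wt replicate 2 and 0.92 without wt replicate 1. Its ligand Cd70 was listed at 0 in all 4 dF1 and wt libraries and was at 4 RPKM, about 2 reads, in dF4.

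Tnfrsf18, which encodes GITR, was at 35.9 and 40.6 RPKM in dF1, 24.9 (13.9 to 40.9) in dF4 and 36.1 and 27.6 in wt, with overlap between all groups. Tnfrsf9, a receptor induced on activated T and NK cells, was at 8.9 and 5.2 RPKM in dF1, 3.3 (0.909 to 8.54, about 4 reads) in dF4 and 14.7 and 6.4 in wt. Of the 16 genes at 5 RPKM or more it had the lowest dF4 level relative to wt, with a difference of -1.33, but its dF4 interval reaches the lower wt library. The dF1 difference was -0.46 (SE 0.42, limma adjusted p = 0.856), and 0.08 without wt replicate 1. Its ligand Tnfsf9 was at 1.1 and 1.5 RPKM in dF1, 8.2 (2.99 to 17.7, about 6 reads) in dF4 and 1.5 and 1.4 in wt. Tnfsf8, the ligand of CD30, was at 2.6 and 3.2 RPKM in dF1, 9 (4.65 to 15.7) in dF4 and 3.6 and 1.7 in wt. Both ligands were thus higher in dF4 than in each of the other 4 libraries. Tnfrsf4, which encodes OX40, lay between 1.1 and 2.1 RPKM in all 5 libraries.

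Wild-type replicate 2 held less of several of these transcripts than replicate 1. Among the 8 ligands with a mean of at least 1 RPKM, 7 were lower in wt replicate 2, with a median log2 difference of -0.60. Among the 16 receptors 7 were lower and 9 higher, with a median of 0.06. Over all 12215 transcripts tested 7360 were lower and 4500 higher, with a median of -0.08. The NK marker sum was also lower in that library, at 638 RPKM against 1415 in wt replicate 1, and the neutrophil sum was higher. The part of NK cells in the levels of Ltb, Cd27, Tnfsf14 and Tnfrsf9 was not tested.

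The receptors of TNF itself were abundant, and their dF1 and wt libraries overlapped. Tnf was at 7.1 and 4.6 RPKM in dF1, 10.3 (4.95 to 19, about 10 reads) in dF4 and 4.7 and 3.7 in wt. Tnfrsf1a, the death domain receptor of TNF found on most cells, was at 31.8 and 34.7 RPKM in dF1, 50.9 (39.4 to 64.9) in dF4 and 32.9 and 34 in wt. The dF1 and wt values of Tnfrsf1a lie within each other (difference -0.01, SE 0.11, limma adjusted p = 0.993), and dF4 is above all 4. Tnfrsf1b, the TNF receptor of hematopoietic cells that lacks a death domain, was at 29.4 and 29.8 RPKM in dF1, 32.5 (26.4 to 39.8) in dF4 and 31.7 and 21.9 in wt. No library of Tnfrsf1b stood apart from the others beyond the spread in wt.

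Other genes of the death receptor branch were lower in level than Tnfrsf1a. Tnfsf10 encodes TRAIL, a ligand that can kill transformed cells, and was at 10.2 and 8 RPKM in dF1, 15.6 (11.4 to 20.7) in dF4 and 9 and 6.4 in wt. Tnfrsf10b, its death receptor in the mouse, lay between 0.3 and 0.5 RPKM in dF1 and wt and at 2.6 (about 5 reads) in dF4. Tnfrsf21, a death domain receptor, was at 2.4 and 2.6 RPKM in dF1, 12.9 (8.57 to 18.6, about 28 reads) in dF4 and 2.5 and 2.8 in wt. The 4 dF1 and wt values of Tnfrsf21 lie close together, and dF4 is 4.87-fold the wt mean. Fas, the receptor of Fas ligand, was at 1.5 and 0.7 RPKM in dF1, 12 (3.27 to 30.7) in dF4 and 1 and 0.5 in wt, on a transcript of 558 bases. Its longer transcript of 1495 bases was at 0.9 and 1 RPKM in dF1, 4.5 in dF4 and 2.5 and 1.2 in wt. Each of the Fas transcripts comes to about 4 reads in dF4, and whether they share those reads is not given. They also differ between dF1 and wt. The longer was lower in both dF1 libraries than in both wt libraries, while the shorter, the one taken for the family, overlapped (difference 0.25). Tnfrsf26, a mouse receptor whose gene lies beside those of the TRAIL decoy receptors Tnfrsf22 and Tnfrsf23, was at 8.2 and 6.2 RPKM in dF1, 5.6 in dF4 and 8.2 and 3.2 in wt. These 3 genes are similar in sequence, so their split of reads is uncertain.

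The remaining pair above 1 RPKM on average was TWEAK and its receptor. Tnfsf12, TWEAK, was at 5.5 and 5.3 RPKM in dF1, 7.9 (3.4 to 15.5) in dF4 and 6.1 and 3.2 in wt. Tnfrsf12a was at 0.5 and 1.6 RPKM in dF1, 3.9 (about 2 reads) in dF4 and 1.4 and 1.7 in wt. Tnfrsf19, a receptor best known from epithelial and neural cells, was at 1.9 and 1.6 RPKM in dF1, 5.4 (2.86 to 9.19) in dF4 and 3.9 and 1.5 in wt. For these 3 genes the dF1 and wt libraries overlap and the dF4 interval reaches into the wt range. In the RefSeq table of GRCm38.p6, 14 of the 40 genes overlap another gene, among them Tnfsf12 and Tnfsf13 (with the joint gene Tnfsfm13), Tnfrsf13b (Usp22), Tnfrsf12a (Hcfc1r1) and Tnfrsf4 (Sdf4). Strand use is not given in the sources used here, so reads of such partners cannot be told apart.

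The 16 genes below 1 RPKM on average reached at most 1 RPKM in dF1, 4 in dF4 and 1.1 in wt, and were not tested. In dF4 they came to 5 reads or fewer each. Cd70, Tnfrsf11b (osteoprotegerin, a decoy receptor of RANK ligand) and Tnfsf15 were listed at 0 in all dF1 and wt libraries and had 1 to 3 reads in dF4. Tnfsf4, OX40 ligand, was at 0.1 or below in dF1 and wt and at 3.1 RPKM (about 3 reads) in dF4. Tnfsf11, RANK ligand, was at 0.1 RPKM in dF1, 1.5 in dF4 and 0.2 in wt, and its receptor Tnfrsf11a was at 0.7 and 1 RPKM in dF1, 0.3 in dF4 and 0.9 and 1 in wt. Tnfsf18, GITR ligand, was listed at 0 in all 5 libraries. The 7 genes listed at 0 in dF4 (Tnfrsf22, Tnfrsf17, Tnfrsf8, Tnfsf13, Tnfrsf25, Cd40lg and Tnfsf18) have limits there of 2.2 to 6.16 RPKM, what 3 reads would give, and all of these limits lie above the levels seen in dF1 and wt, so no difference was detectable at this depth.

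Between dF1 and wt, no member of the family passed the test. Limma called 0 of the 24 tested members at an adjusted p of 0.05, and 0 of 12215 transcripts overall (0% called). Their adjusted p ran from 0.474 to 0.993. At an unadjusted p under 0.05 there were 3 members, with Tnfsf14 and Cd40 higher and Ltbr lower in dF1, where 7.16% of all transcripts did so. The dF1 and wt libraries did not overlap for 4 of the 24, with Cd27, Tnfsf14 and Cd40 higher and Ltbr lower. Over all transcripts 34.7% did not overlap (16.8% higher and 17.9% lower in dF1), so the members separated the groups no more often than transcripts at large. The smallest two-sided p that an exact permutation of 2 against 2 libraries allows is 0.333, so no such test could pass 0.05. The median difference was 0.11 over the 24 members, 0.23 over the 8 ligands and -0.03 over the 16 receptors, beside 0.01 over all transcripts tested. Of the ligands 6 were on the higher side in dF1 and 2 on the lower, and of the receptors 7 and 9. Without wt replicate 2 the median over the tested members was 0.0026.

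**Figure D3:**
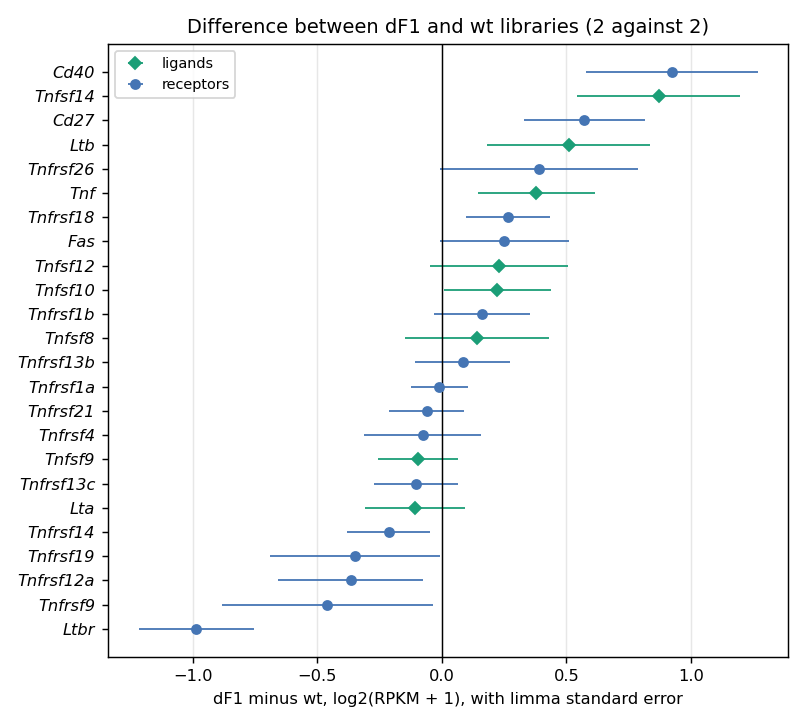
Difference between dF1 and wt on the log2(RPKM + 1) scale for the 24 tested members (diamonds, ligands; circles, receptors; bars, limma standard error). Ltbr lies lowest at -0.99 and Cd40 highest at 0.92, and no adjusted p is below 0.474.

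Between dF4 and wt, most members stood on the higher side in the single dF4 library. With a single library this contrast has no test, and it shares its wt libraries with the dF1 contrast. Over all 40 members 28 were higher, 11 lower and 1 equal, with a median difference of 0.86. Over all 26531 transcripts 7875 were higher, 9101 lower and 9555 equal, with a median of 0. These sets are unlike, since members are 1 per gene and transcripts listed at 0 in dF4 and wt count as equal. Of the members, the 16 below 1 RPKM on average rest on 5 dF4 reads or fewer each. Among those that averaged 1 RPKM or more in the dF1 and wt libraries, the median was 0.91 over 22 members and -0.03 over 11825 transcripts. A difference was counted by size when dF4 lay outside both wt libraries and at least 1 (log2) from their mean. The wt libraries also had to differ by no more than 0.5, and the 5 libraries had to average 5 RPKM or more. By this rule Cd40, Tnfrsf13c, Tnfrsf13b and Tnf were higher, 4 of 16 members considered, and 0 were lower, against 6.96% higher and 9.34% lower of 8759 transcripts. With a pseudocount of 5 it was 1 of 16, and with median centring 2 of 16. Cd40 entered only through its dF4 level, since its mean over the other libraries is 1.6 RPKM. For 7 of the 16 the wt libraries were further apart than the rule allows, Ltb and Tnfsf14 among them.

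A filter that leaves dF4 out kept 22 members, those that averaged 1 RPKM or more in the dF1 and wt libraries. The choice of transcript per gene had still used the mean over all 5 libraries. For Fas it took the 558-base transcript, at 0.925 RPKM without dF4 and so not kept. The dF4 interval of the 1495-base transcript (1.22 to 11.5 RPKM) covers a wt library at 2.5. Among the 22, the dF4 interval lay above both wt libraries for 12 and below both for 0. The shares over 11825 transcripts, with every transcript of a gene counted, were 17.0% and 14.2%. The 12 were Ltb, Cd27, Tnfrsf1a, Tnfrsf13c, Tnfrsf13b, Tnfsf14, Tnfsf10, Cd40, Tnf, Tnfrsf21, Tnfsf8 and Tnfsf9. In 10 of them, all but Cd27 and Tnf, the interval also lay above both dF1 libraries. Ligands made up 6 of the 12, out of 7 ligands kept, and receptors 6 of 15. Beside mature B cell markers, the marker sums of neutrophils, monocytes, T cells and red cells were also higher in dF4. Monocyte markers (6 genes) summed to 210.3 and 228.8 RPKM in dF1, 1432 in dF4 and 203.6 and 119.6 in wt, with none at 0. Most of the dF4 sum was Lyz2, at 1124 RPKM, and Ccr2 was at 148.3 and 134.9 RPKM in dF1, 63.8 in dF4 and 121.4 and 46.6 in wt. T cell markers (7 genes) summed to 268 and 233.3 RPKM in dF1, 484.6 in dF4 and 245.4 and 149.8 in wt, with Trat1 listed at 0 in dF4 and Cd28 at 12.8 there, within the range of the wt libraries (15.9 and 10.4). Erythroid markers (6 genes) summed to 3 and 12.7 RPKM in dF1, 288 in dF4 and 4.5 and 18.7 in wt. Stromal markers (5 genes) summed to 1.1 and 0.5 RPKM in dF1, 90.3 in dF4 and 1.2 and 8.7 in wt. Most of the dF4 stromal sum was Cxcl12, at 62.6 RPKM. Col3a1 was listed at 0 in all libraries but dF4, while Col1a1 was at 0.7 RPKM in dF4, within the wt range (0 and 5). In dF4 Cox6a2 alone of the plasmacytoid dendritic cell markers was listed at 0. The part of these cells in the family's dF4 levels was not tested.

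Signalling genes downstream of the receptors were present throughout. The list held 46 genes. It also took in 6 ligands and receptors of the family that go by other symbols, of which 4 averaged below 1 RPKM and were not tested. Of the 46, 42 were tested, and limma called 0 of them in either direction between dF1 and wt. Their differences ran from -0.43 to 0.60, with a median of 0.05. The upper end was Fasl, a ligand, and the highest of the signalling genes was Traf5 at 0.46. Among the 16 adaptor and death domain genes 12 were on the higher side in dF1, and the groups did not overlap for 10 of the 16, 9 higher and 1 lower. Over the 42 genes they did not overlap for 18, 42.9% beside 34.7% of all transcripts. The adaptor Traf5 was at 13.7 and 12.2 RPKM in dF1 against 9.2 and 9 in wt, and Traf4 at 23.1 and 21.5 against 17 and 16.5. The limma adjusted p was 0.59 and 0.601. Diablo, an antagonist of caspase inhibitors, was at 23.3 and 23.7 RPKM in dF1 and 20.4 and 17.7 in wt. In these 3 genes both dF1 libraries exceed both wt libraries, and the dF1 mean is 1.42, 1.33 and 1.23 times the wt mean. The 15 adaptor genes that differed between the wt libraries were all lower in wt replicate 2. Of all 12215 transcripts tested, 7360 were lower in that library and 4500 higher.

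Some NF-kB and inhibitor genes stood higher in dF4. Nfkb2, the subunit of the noncanonical pathway that the lymphotoxin, BAFF and CD40 receptors drive, was at 16.2 and 18.6 RPKM in dF1, 52.2 in dF4 and 17.2 and 19.7 in wt. Its partner Relb was at 10.1 and 8.7 RPKM in dF1, 21.2 in dF4 and 8.5 and 10.3 in wt. Nfkbia, the inhibitor that NF-kB itself induces, was at 38.2 and 30.5 RPKM in dF1, 101.8 in dF4 and 48.9 and 35.7 in wt. These 3 were the pathway genes higher in dF4 by the size rule, of 41 considered, and 0 were lower. That is 7.32%, close to the 6.96% of all transcripts by the same rule. The dF4 Poisson interval lay above both wt libraries for 12 of the 42 tested genes and below both for 5. Over 11825 transcripts the shares above and below were 17.0% and 14.2%. The canonical subunits Rela, Rel and Nfkb1 differed between dF4 and wt by -0.06, -0.04 and 0.28, and for Nfkb1 the dF4 interval (115.4 to 144.2 RPKM) lay above the other 4 libraries, at 90.5 and 106.3 in dF1 and 108.5 and 104.1 in wt. Over the 42 tested genes the median dF4 difference was -0.01.

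On the lower side in dF1 were Bcl3, a nuclear partner of NF-kB, at 9.9 and 10.3 RPKM in dF1 against 12.5 and 15.6 in wt, Tnip2 at 9.1 and 10.3 against 11.5 and 14.7, and Tab1 at 8.5 and 9.2 against 10.9 and 11. The difference of Bcl3, -0.43, was the lowest of the 42 genes. All 3 were lower in both dF1 libraries, with limma adjusted p of 0.672, 0.721 and 0.751. Nfkbib and Rela were higher and Ikbkg lower in both dF1 libraries by 0.17, 0.16 and -0.13. Of the 6 family genes that go by other symbols, Fasl, the ligand of Fas made by NK and T cells, was at 16.8 and 15.6 RPKM in dF1, 8.9 in dF4 and 15.6 and 6.8 in wt. Relt was at 11.5 and 12.7 RPKM in dF1, 6.5 in dF4 and 10.8 and 10.5 in wt. Ngfr was at 3.4 RPKM in dF4 and 0.4 or below elsewhere, and Eda, Edar and Eda2r lay at 0.2 or below.

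**Figure D4:**
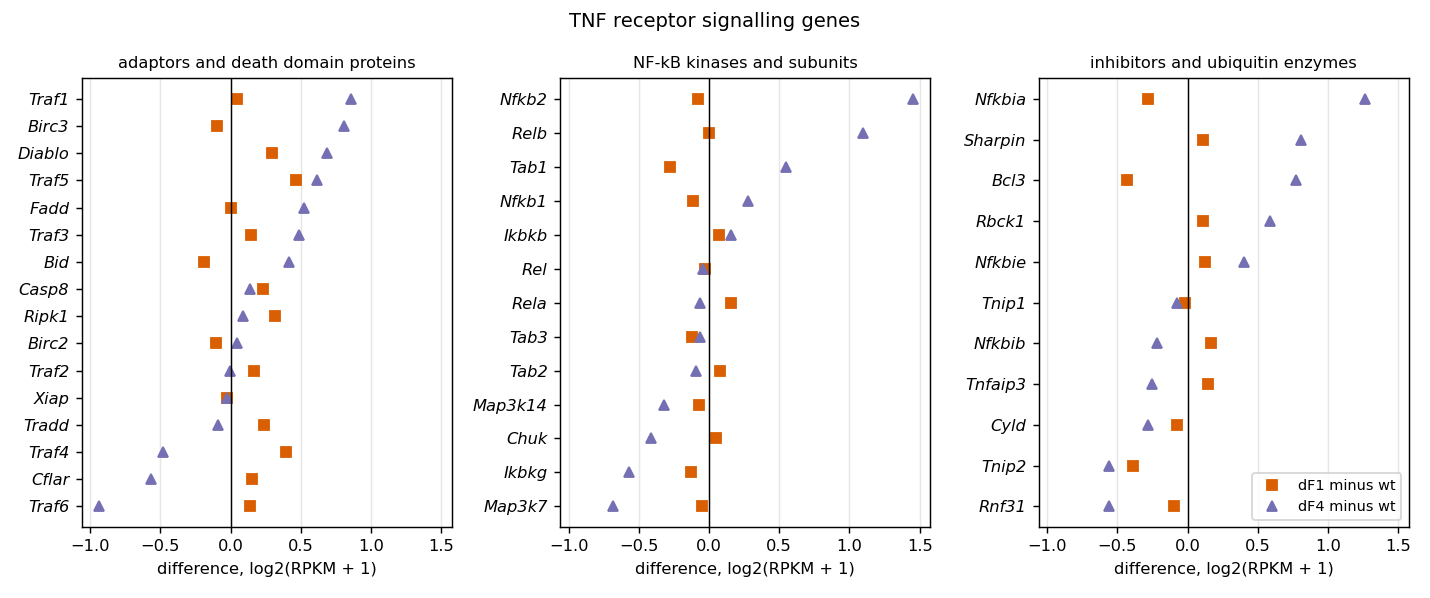
Difference from wt on the log2(RPKM + 1) scale for 40 TNF receptor signalling genes in 3 groups (squares, dF1; triangles, dF4). Nfkb2, Nfkbia and Relb lie furthest to the right in dF4, at 1.45, 1.26 and 1.10, and the dF1 squares stay between -0.43 and 0.46.

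Ligands and receptors were also read as pairs. Of 24 known pairs of the mouse, both genes were at 1 RPKM or more for 9 and 7 pairs in dF1, 16 in dF4 and 8 and 9 in wt. The pairs so in all 5 libraries numbered 6, namely Tnf with Tnfrsf1a and with Tnfrsf1b, Ltb with Ltbr, Tnfsf14 with Ltbr and with Tnfrsf14, and Tnfsf9 with Tnfrsf9. For the Ltb and Ltbr pair the ligand exceeded the receptor 17.8-fold in dF4, and by 17.1-fold and 11.7-fold in dF1 against 6.85-fold and 2.87-fold in wt. Several of the further pairs in dF4 rest on ligands of 2 or 3 reads, such as Cd70, Tnfsf4 and Tnfsf13b, so at this depth their presence is uncertain. Both genes of a pair were measured in one mixed sort, and the cells that held each were not resolved.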

How the data were processed

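RNA of the sorted cells was sequenced in 5 libraries. The authors deposited 1 table of RPKM values for 26531 transcripts, with 1 column per library, and TopHat, bedtools and the build mm9 are listed in the submitters' processing notes. How reads were counted, and whether by strand, is not given in the sources used here. Levels were compared as log2(RPKM + 1) with limma 3.58.1 in R 4.3.3 (2 dF1 against 2 wt, mean-variance trend, two-sided, Benjamini-Hochberg adjustment over the 12215 transcripts that averaged 1 RPKM or more across all libraries). RPKM values are not counts, so no count model was used. The dF4 library has no replicate, and the size rule and Poisson intervals were used for it. The fit was tested on simulated data. Fold changes of low genes are understated on this scale. Genes named with values were those with a mean of at least 5 RPKM, those past the size rule and those with the smallest p among genes whose groups did not overlap. Further members named for their role were chosen after their values were seen. For the signalling genes up to 3 per list were named by p and by size, and Fasl, Ngfr, Eda, Edar, Eda2r, Rel and Nfkb1 were added after their values were seen. The members and lists were chosen with earlier results of these data known. Alternatives covered the pseudocount, the filter, scaling, variances, a replicate block and each library left out. The summed level of the early B lineage list is not reported here, and Pax5, Igll1, Blnk and Rag1 were chosen from it after their values were seen.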

Additional observations from a re-analysis of the deposited data

How the results depend on the processing

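With robust variances limma called 33 transcripts between dF1 and wt, with the filter at a mean of 5 RPKM 25, and with no filter 245, and with the other settings 0. Of the members it called 0 in each setting but the one with no filter, where it called 1, Tnfsf11, at 0.1 RPKM in both dF1 libraries and 0.2 in both wt libraries. The samples share a replicate number but the labels do not say that it pairs them. Deviations of same-numbered libraries correlated at 0.305 over 12215 transcripts, and the fit with the replicate block called 0 transcripts and 0 members. The dF1 and wt libraries did not overlap for 8 members with no filter (20% of members, 19.7% of all transcripts) and for 6 under quantile normalization or median centring (25% of members, 37.5% and 39.4% of all). With 1 library left out, where a lone library separates more easily, it was 10 to 19 members (41.7% to 79.2%), beside 61.7% to 72.2% of all. The median dF1 difference of the members lay between 0 and 0.28. With each library left out, the dF1 differences ran from -0.13 to 0.29 for Tnfrsf13b (-0.013 without dF1 replicate 2), -0.30 to 0.090 for Tnfrsf13c, -0.071 to 0.052 for Tnfrsf1a (0.014 without wt replicate 2), -0.10 to 0.42 for Tnfrsf1b, -0.18 to 0.95 for Tnfrsf26, -1.003 to 0.082 for Tnfrsf9 and -0.15 to 0.61 for Tnfsf12, so these 7 have no stable direction. The members past the dF4 size rule numbered 1 of 16 with pseudocount 5 (Cd40), where 5.55% of all transcripts were higher, 2 with median centring (Tnf and Tnfrsf13c), beside 6.23%, and 3 of 15 with the filter over wt and dF1 alone, beside 5.24%. They numbered 7 with no limit on the wt gap (6 higher, beside 9.57%, and Tnfrsf9 lower). With pseudocount 0.1 it was 4, with Tnfsf10 in place of Cd40, beside 7.23%. Under quantile normalization it was 3 (Cd40, Tnf and Tnfrsf13c), beside 6.53%, so which members passed depended on the setting. With a mean of at least 1 RPKM it was 8 of 24, beside 10.6%, of which Fas and Lta passed that filter only through dF4. At a mean of at least 1 RPKM 2595 transcripts passed, and the members' median was 0.95, against 0.78 at 5 RPKM and 0.56 to 0.99 with 1 wt library left out. Pairs with both genes present in all libraries numbered 10 at 0.5 RPKM and 0 at 5 RPKM, thresholds chosen after seeing the data. Apart from the samples and genes left out, the cause of these shifts was not tested. Depth limits dF4, where the interval for Fas at about 4 reads ran from 3.27 to 30.7 RPKM.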
